A study of Rattus norvegicus with 90 samples.

Results

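Crp, the gene of C-reactive protein, was examined together with 7 genes of interleukin-6 family signalling, 8 of the 13337 genes named on a rat bead array of 22523 probes. The other 7 were the receptor genes Il6r, Il6st, Osmr and Lifr, the transcription factor gene Stat3, and the inhibitor genes Socs2 and Socs3. The members were chosen by symbol, and the probe of a gene was selected on its mean level over all arrays, the brightest being kept. Each of the 8 genes had only 1 probe, so this choice removed none. Crp was itself picked for its low level with gastrin at 10 and 14 h, so its values at those times are given as a description, with no test.

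The cells were AR42J, a line from a rat pancreatic acinar tumour that carries the gastrin receptor. Gastrin is a peptide hormone of the stomach, and cycloheximide blocks protein synthesis. Total RNA was measured on 90 arrays in 6 batches, of untreated cells (35 arrays, controls), cells given gastrin (34), cycloheximide (9) or gastrin with cycloheximide (10), and doses are not given in the sources used here. Batches 2 and 3 held controls and gastrin at times from 0.25 to 14 h, with a control at 0 h, batches 4 and 5 held all 4 treatments at 1, 2, 4 and 6 h, batch 6 held them at 4 h, and batch 1 held control and gastrin at 14 h. The labels name batches and do not say whether these were separate cultures. A p-value here thus speaks only of variation among these samples, part of which may be technical. In the fits the times of one batch enter as separate, so p-values do not measure spread among the batches. For 2 arrays of batch 3 at 12 h the title names one treatment and the treatment label another, so they were left out of all comparisons.

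Cytokines of the interleukin-6 family bind a private receptor chain (the product of Il6r, Osmr or Lifr) that pairs with the shared signal transducer gp130, the product of Il6st. The activated receptor leads Janus kinases to phosphorylate STAT3, which enters the nucleus and switches on genes that include Socs3 and its own gene, Stat3. SOCS3 binds the receptor and closes the loop, and SOCS2 is best known as a brake on growth hormone signalling. In the human liver, STAT3 with C/EBP factors drives C-reactive protein during the acute phase response. Whether rat Crp is driven this way was not tested here. Acinar cells of the inflamed pancreas make acute phase proteins of their own, the Reg3 lectins.

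The DNA before the start sites of the genes was taken from RefSeq (GRCr8), where 7 of the 8 members were matched, all but Socs2. The 250 bases before the start were searched on both strands for 4 motifs. These were the STAT palindrome TTCNNNGAA, the AP-1-like letters TGANTCA with any central base, the cAMP response element TGACGTCA and the C/EBP core TTGCAA. Crp is shown because its level spanned the widest range, Osmr because it held matches to the same motifs, and Stat3 and Socs3 as the genes of the feedback loop. Capitals mark the matches, each read on the strand printed, and no matches overlapped. The Crp window lies at chr13:87693812-87694061 (plus strand), Osmr at chr2:57688562-57688811, Stat3 at chr10:86363360-86363609 and Socs3 at chr10:103694769-103695018 (all minus strand).
Crp: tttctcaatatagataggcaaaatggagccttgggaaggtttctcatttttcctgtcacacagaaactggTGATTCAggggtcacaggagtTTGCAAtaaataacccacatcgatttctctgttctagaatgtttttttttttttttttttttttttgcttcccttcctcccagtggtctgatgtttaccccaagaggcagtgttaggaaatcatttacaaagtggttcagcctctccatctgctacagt
Osmr: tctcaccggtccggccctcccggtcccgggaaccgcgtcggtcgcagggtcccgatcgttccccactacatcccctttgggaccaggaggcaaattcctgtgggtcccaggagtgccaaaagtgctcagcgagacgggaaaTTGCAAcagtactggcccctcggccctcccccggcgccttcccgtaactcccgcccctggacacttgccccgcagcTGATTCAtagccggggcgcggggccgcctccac
Stat3: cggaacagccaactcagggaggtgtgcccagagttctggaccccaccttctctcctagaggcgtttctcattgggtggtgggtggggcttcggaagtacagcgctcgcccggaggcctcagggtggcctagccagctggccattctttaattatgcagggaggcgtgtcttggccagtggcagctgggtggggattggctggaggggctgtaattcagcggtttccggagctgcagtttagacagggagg
Socs3: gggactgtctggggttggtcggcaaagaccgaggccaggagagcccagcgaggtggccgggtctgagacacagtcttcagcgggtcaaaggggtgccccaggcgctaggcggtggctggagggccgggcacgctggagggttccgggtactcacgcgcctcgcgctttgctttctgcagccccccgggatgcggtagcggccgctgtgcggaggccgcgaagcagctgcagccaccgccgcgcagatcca
In Crp an AP-1-like match began 180 bases before the start, at position -180, and a C/EBP core match at -159. The AP-1-like match read TGATTCA, with T at the centre, which is looser than the strict AP-1 site. Osmr held the same TGATTCA at -33 and the C/EBP core at -109. No other member's window held any of the 4 motifs, which says only that these letters are not in these windows. Among all 33469 promoter windows of the same length, 7.667% held the STAT palindrome and 6.34% the AP-1-like letters. The cAMP response element was in 1.587% and the C/EBP core in 5.079%.

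Levels are given in log2 units as deposited, where 1 unit is a doubling if the scale is a plain logarithm. Array medians lay between 6.40 and 6.41. The acinar label was borne out by 13 acinar markers, whose mean levels lay between the 76.0th and 99.9th percentile of all probes, with Cckbr, the gene of the gastrin receptor, at the 91.5th. The 5 immune markers lay between the 14.8th and 49.3rd percentile and the 7 fibroblast markers between the 5.25th and 26.5th. Of 9 hepatocyte markers, Ttr and F2 lay at the 93.5th and 91.9th percentile, and the other 7, Alb among them, at or below the 42.5th. Some arrays stood apart along 1 axis of expression, scored here so that the 2 h controls of batches 4 and 5 average 1 (their scores were 1.10 and 0.898). The score was above 0.25 on 20 arrays, of which 8 were gastrin arrays of batches 2 and 3 and 11 were arrays of batches 4 and 5. Results that rest on the 2 h arrays of batches 4 and 5 are also given without them, a choice made after seeing the data.

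The 4 receptor genes were dim and nearly flat. Il6r, the interleukin-6 binding chain, lay between 6.05 and 6.77 over the 90 arrays, Il6st between 5.81 and 6.36, Osmr, the oncostatin M chain, between 5.98 and 6.64, and Lifr, the leukaemia inhibitory factor chain, between 5.96 and 6.56. Their mean levels fell at the 48.5th, 11.8th, 43.6th and 40.8th percentile of all probes, in or below the range of the immune markers, and detection above background was not assessed here. None of the 4 passed limma's test (Benjamini-Hochberg adjusted over all 22523 probes, threshold 0.05) in any of the 14 comparisons. Their fitted differences with gastrin lay between 0.03 and 0.05 at 0.5 to 2 h and between -0.03 and 0.08 at 4 to 8 h. The lowest adjusted p of any receptor in limma, 0.0718, was that of Il6r in untreated cells, at -0.18 ± 0.06 (SE) late against early. By contrast Crp spanned 3.43 units over all arrays, Stat3 3.37, Socs3 3.15 and Socs2 2.54.

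Crp was lower with gastrin at every time measured in batches 2 and 3. In batch 2 the control read 10.33 at 0.25 h, 9.56 at 0.5 h, 10.07 at 1 h, 9.91 at 1.5 h, 9.71 at 2 h, 10.03 at 4 h, 9.98 at 6 h and 8.93 at 8 h. With gastrin the same batch read 9.55, 9.30, 8.59, 8.86, 8.70, 9.07, 9.12 and 8.59 at those times. The gap was present at 0.25 h, the first time measured, and in this batch it was narrowest at 0.5 and 8 h. In batch 3 the control read 9.94, 9.37, 9.22, 9.44, 9.65, 9.60, 9.68 and 8.85 from 0.25 to 8 h. With gastrin batch 3 read 9.38, 8.94, 8.23, 9.04, 8.57, 8.58, 8.79 and 8.32. At 1, 2, 4 and 6 h, the times shared with the inhibitor batches, the 8 controls of batches 2 and 3 (lowest 9.22, median 9.69, highest 10.07) did not overlap with their 8 gastrin samples (8.23, 8.64 and 9.12). How many other genes separated likewise was not counted. In limma fits of batches 2 and 3 alone, 5981 of 22523 probes passed at 0.5 to 2 h and 3715 at 4 to 8 h. In bulk RNA, fewer cells holding the transcript and less transcript per cell cannot be told apart.

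**Figure D1:**
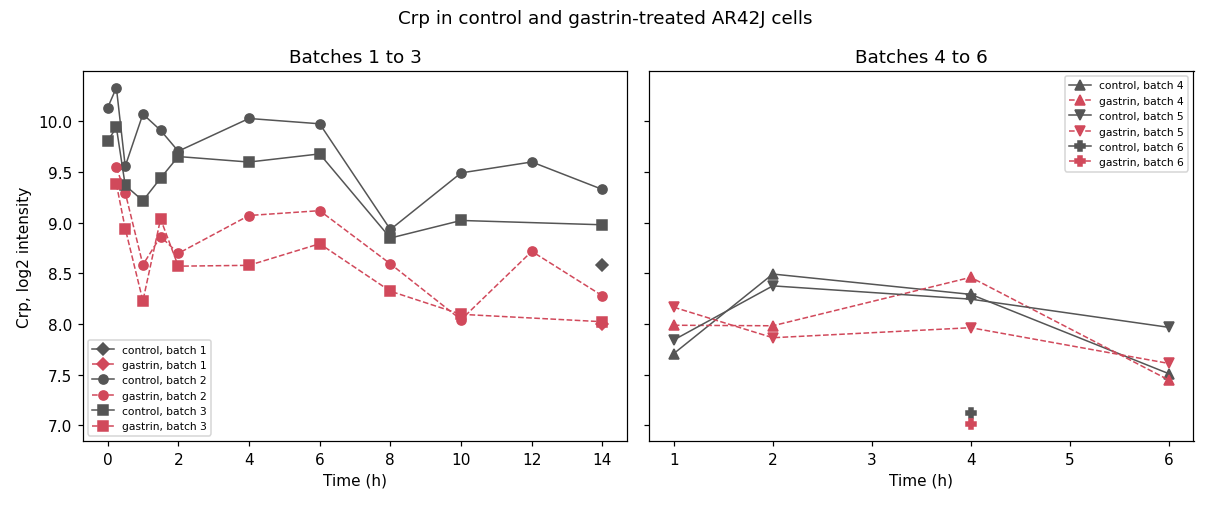
Crp level (log2 intensity, vertical axis) against time in hours for control (grey, solid) and gastrin (red, dashed) samples, batches 1 to 3 on the left and 4 to 6 on the right; 1 point is the mean of a batch's arrays at a time. In batches 2 and 3 every red point lies under the grey point of its batch and time, from 0.25 to 14 h, and in batches 4 to 6 the colours cross and both lie between 7.01 and 8.49.

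Over all batches Crp fell with gastrin by 0.58 ± 0.13 (SE) at 0.5 to 2 h, a 1.49-fold lower level (limma adjusted p = 0.00348), and by 0.47 ± 0.14 at 4 to 8 h, 1.39-fold lower (adjusted p = 0.0216). With it 2 of 8 members passed in the early window (Socs2 being the other) and 1 of 8 in the later one, where 9.21% and 10.3% of all probes did. The difference rested on batches 2 and 3. There it was -0.84 ± 0.06 at 0.5 to 2 h, lower in 8 of 8 pairs, and -0.76 ± 0.07 at 4 to 8 h, lower in 6 of 6. Without batch 2 the early difference was -0.41 and without batch 3 it was -0.57, and the late ones were -0.42 and -0.35, and none of these 4 passed. Without the blocks of a high array score, which leaves 0.5 h of batches 2 and 3 and 1 h of batches 4 and 5, the early value was -0.021 (adjusted p = 0.999). That value averages opposite signs. At 0.5 h batches 2 and 3 differed by -0.26 and -0.43, and at 1 h batches 4 and 5 differed by 0.28 and 0.32. With no batch term neither window passed (adjusted p of 0.703 and 0.952), and the 4 to 8 h call was also lost with limma's trend and robust options (adjusted p = 0.0714) and with the numbered 1 h series alone (adjusted p = 0.0565). At 10 and 14 h, where Crp was picked for its low level, gastrin samples of batch 2 read 8.04 and 8.28 against controls of 9.49 and 9.33, and those of batch 3 read 8.10 and 8.02 against 9.02 and 8.98. In batch 1 at 14 h the control read 8.59 and the gastrin sample differed from it by -0.59. The fitted value there was -1.03 ± 0.19, a description with no test, in a window where 7.52% of all probes passed and 0 of the other 7 members did (1 at an unadjusted limma p under 0.05). At 12 h batch 2, the only usable pair, read 9.60 without and 8.72 with gastrin.

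Stat3, the transcription factor at the centre of the pathway, stood highest over its control at 1.5 h of gastrin in both long courses and was close to it at 8 h. In batch 2 gastrin minus control was -0.26 at 0.25 h, -0.04 at 0.5 h, 0.04 at 1 h, 0.85 at 1.5 h, 0.72 at 2 h, 0.50 at 4 h, 0.20 at 6 h and 0.03 at 8 h. In batch 3 it was -0.22, -0.02, 0.37, 0.63, 0.32, 0.38, 0.13 and 0.10. Both batches thus lay below the control at 0.25 h and above it from 1 to 8 h. Fitted over all batches, Stat3 differed by 0.20 ± 0.08 at 0.5 to 2 h (limma adjusted p = 0.118) and 0.24 ± 0.08 at 4 to 8 h (adjusted p = 0.0542), and it passed in neither window. In batches 2 and 3 alone it rose by 0.36 ± 0.05 (limma adjusted p = 3.76e-07) and 0.22 ± 0.06 (adjusted p = 0.00329). The times of these batches count as separate pairs in that fit, so its p-values do not measure spread between the batches. In batches 4 to 6 Stat3 was lower with gastrin in 3 of 4 pairs at 1 and 2 h (-0.72 to 0.06). It was higher in 5 of 5 at 4 and 6 h (0.11 to 0.54). Without the 2 h arrays of batches 4 and 5 Stat3 passed in both windows. The values were 0.33 ± 0.05 (limma adjusted p = 1.52e-05) and 0.24 ± 0.05 (adjusted p = 0.000643). That choice, made after seeing the data, removed early pairs of -0.72 and -0.34. The 1 h pairs left in these 2 batches differed by -0.15 and 0.06, so the early rise again rested on batches 2 and 3. Without the blocks of a high array score the early value turned in sign. At 10 and 14 h Stat3 differed by -0.03 ± 0.11 over all batches.

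Socs2, the inhibitor tied to growth hormone signalling, rose with gastrin at 0.5 to 2 h. The differences in batch 2 were 0.05 at 0.5 h, 0.51 at 1 h, 0.50 at 1.5 h, 0.58 at 2 h, 0.55 at 4 h, 0.28 at 6 h and 0.13 at 8 h. In batch 3 they were -0.05, 0.23, 0.29, 0.63, 0.68, 0.35 and 0.02. The 2 series were highest at 2 and 4 h and had closed by 8 h, and at 10 to 14 h all 5 pairs of these batches lay below 0, between -0.29 and -0.04. Over all batches the early rise was 0.24 ± 0.07 (limma adjusted p = 0.0225), and it did not pass without batch 2 (0.16), without batch 3 (0.25), without blocks of a high array score (0.034), with the score as a covariate (0.16), or with batch as an additive term or no batch term. At 4 to 8 h the difference over all batches, 0.13 ± 0.07, did not pass (limma adjusted p = 0.322). In batches 2 and 3 alone Socs2 rose by 0.33 ± 0.05 (adjusted p = 2.47e-06), where the times of a batch count as separate, as for Stat3.

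Socs3, the feedback inhibitor of gp130 receptors, did not pass in any gastrin window over all batches. In batch 2 gastrin minus control was 0.02 at 0.25 h, 0.44 at 0.5 h, 0.54 at 1 h, 0.20 at 1.5 h and -0.11 at 2 h, and in batch 3 it was -0.11, -0.01, 0.18, 0.33 and 0.13 at these times. The highest differences thus came at 1 and 1.5 h, earlier than those of Socs2. This order was not tested and rests on single pairs, and in batch 2 Socs2 already differed by 0.51 at 1 h. Over all batches Socs3 differed by 0.10 ± 0.06 at 0.5 to 2 h (limma adjusted p = 0.351) and -0.08 ± 0.06 at 4 to 8 h (adjusted p = 0.519). In batches 2 and 3 alone it rose by 0.21 ± 0.05 at 0.5 to 2 h (adjusted p = 0.000852), again with times of a batch counted as separate. In batches 4 to 6 Socs3 was lower with gastrin in 4 of 4 pairs at 1 and 2 h, by -0.41 to -0.07.

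**Figure D2:**
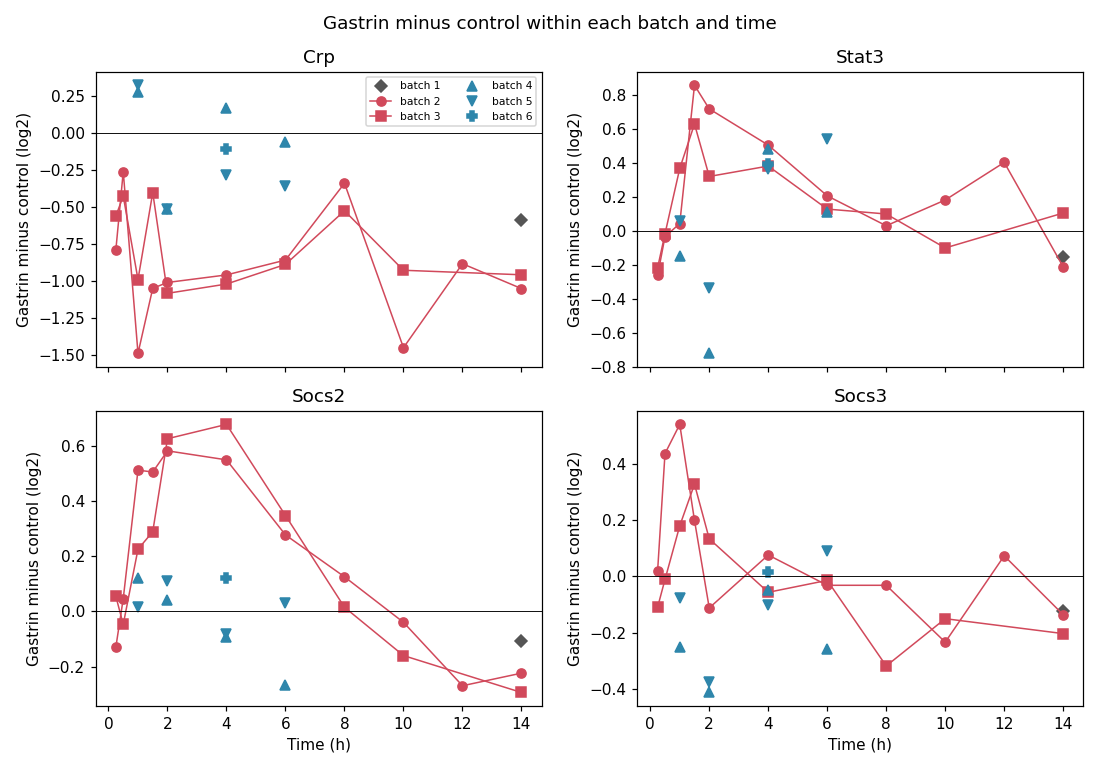
Gastrin minus control within each batch and time (log2 units, vertical axis) against time in hours for Crp, Stat3, Socs2 and Socs3; red circles and squares joined by lines are batches 2 and 3, blue symbols are batches 4 to 6 and the grey diamond is batch 1. In the red lines Socs3 is highest at 1 and 1.5 h, Stat3 at 1.5 h and Socs2 at 2 and 4 h, while Crp lies below 0 throughout; the blue symbols of Crp lie between -0.51 and 0.32.

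Whether the gastrin effect differed between windows was tested directly. Over all batches 0 of 8 members passed for 4 to 8 h minus 0.5 to 2 h (1 at an unadjusted limma p under 0.05), against 5.65% of all probes. For 10 and 14 h minus 0.5 to 2 h, 0 of the 7 members other than Crp passed (2 at an unadjusted p under 0.05), against 3.53% of all probes, with Socs2 at -0.39 ± 0.12 (adjusted p = 0.0706). Without the 2 h arrays of batches 4 and 5 the gastrin effect of 3 members was lower late than early, by limma: Socs2 by -0.46 ± 0.11 (adjusted p = 0.0105), Stat3 by -0.35 ± 0.09 (adjusted p = 0.00972) and Socs3 by -0.32 ± 0.09 (adjusted p = 0.042). In batches 2 and 3 alone the same 3 members passed, with -0.52 ± 0.07, -0.37 ± 0.08 and -0.39 ± 0.08. Of all 22523 probes 1228 passed without those 2 h arrays and 2014 in batches 2 and 3 alone, against 795 in the main fit. For Crp the late minus early value was -0.45 ± 0.23, a description.

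Untreated cells of the long course (batches 2 and 3) and of the inhibitor batches (4 to 6) stood at different levels. At 1, 2, 4 and 6 h the control mean of Crp was 9.74 in batches 2 and 3 (8 samples) and 7.95 in batches 4 to 6 (9 samples, lowest 7.12, median 7.97, highest 8.49), and the ranges did not overlap. A gap of that size, 1.79 or 3.46-fold, or larger was held by 95 of the 13337 named genes, Crp included. Stat3 controls averaged 10.08 and 9.13, and ranges of 9.84 to 10.35 and 8.18 to 10.95 overlapped. Batch sets and their levels were compared with no test, as each set holds few batches. The low Crp of batches 4 to 6 came beside a small gastrin difference, and the part of the one in the other was not tested.

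The gastrin effect was compared between the batch sets at the times both held. Pairs at several times of one batch entered as separate, so the p-values of this contrast do not measure spread among the few batches. At 1 and 2 h the Crp effect was higher in batches 4 to 6 by 1.04 ± 0.10 (limma adjusted p = 6.67e-08), and at 4 and 6 h by 0.79 ± 0.10 (adjusted p = 2.56e-05). Stat3 (-0.65 ± 0.11, adjusted p = 7.68e-05), Socs3 (-0.46 ± 0.09, adjusted p = 0.000638) and Socs2 (-0.41 ± 0.09, adjusted p = 0.00102) had lower effects in batches 4 to 6 at 1 and 2 h by limma, and Socs2 also at 4 and 6 h (-0.53 ± 0.08, adjusted p = 0.000351). So 4 of 8 members passed early and 2 of 8 late, where 20.8% and 4.58% of all probes did. These calls depended on the fit. With no batch term 0 members passed in either window, and with batch as an additive term only Crp at 1 and 2 h did. Over all probes the calls in the 2 windows were 1245 and 20 with no batch term, and 2413 and 180 with the additive term. With the array score as a covariate 0 members passed at 1 and 2 h, Crp being 0.79 ± 0.43 (limma adjusted p = 0.82) and Socs2 turning to 0.20, and the calls over all probes went from 4693 to 1. The score was defined on the 2 h controls of batches 4 and 5, which are arrays of this same contrast. Score and contrast thus overlap, and with the SE of Crp going from 0.10 to 0.43 this fit cannot decide whether the effects differ. Without the 2 h arrays of batches 4 and 5, Crp (1.54 ± 0.15) and Socs3 (-0.52 ± 0.13) still passed at 1 h and Stat3 (-0.25 ± 0.14) and Socs2 (-0.30 ± 0.12) did not. Batches 4 and 5 held 2 series of arrays at 1 h, told apart by a number in the title. Their mean entered the fit. In the numbered series Crp read 7.74 and 7.50 in the controls of batches 4 and 5 and 8.45 and 8.28 with gastrin, while in the unnumbered series it read 7.68 and 8.19 and then 7.53 and 8.06. Crp was thus higher with gastrin in one series of 1 h arrays and lower in the other, in both batches.

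In batch 4 the 3 signalling genes were higher than in batch 5 at 2 and 6 h with every treatment. At 2 h Socs3 read 7.56 in the control, 7.15 with gastrin, 9.45 with cycloheximide and 9.17 with both in batch 4, against 6.75, 6.38, 6.69 and 6.93 in batch 5. Socs2 read 8.58, 8.62, 8.96 and 9.02 in batch 4 against 6.95, 7.06, 6.94 and 7.45 in batch 5, and Stat3 read 10.95, 10.23, 10.28 and 10.51 against 9.39, 9.05, 9.20 and 9.83. Each batch 4 value lay above its batch 5 partner, by at least 0.68 for Stat3, 0.77 for Socs3 and 1.57 for Socs2. Crp differed between the batches at 2 h by only -0.29 to 0.12. These values are 1 sample per batch, treatment and time, with no test. In these batches the 4 h arrays belong to another title series than the 2 and 6 h arrays, so time and series cannot be told apart.

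**Figure D3:**
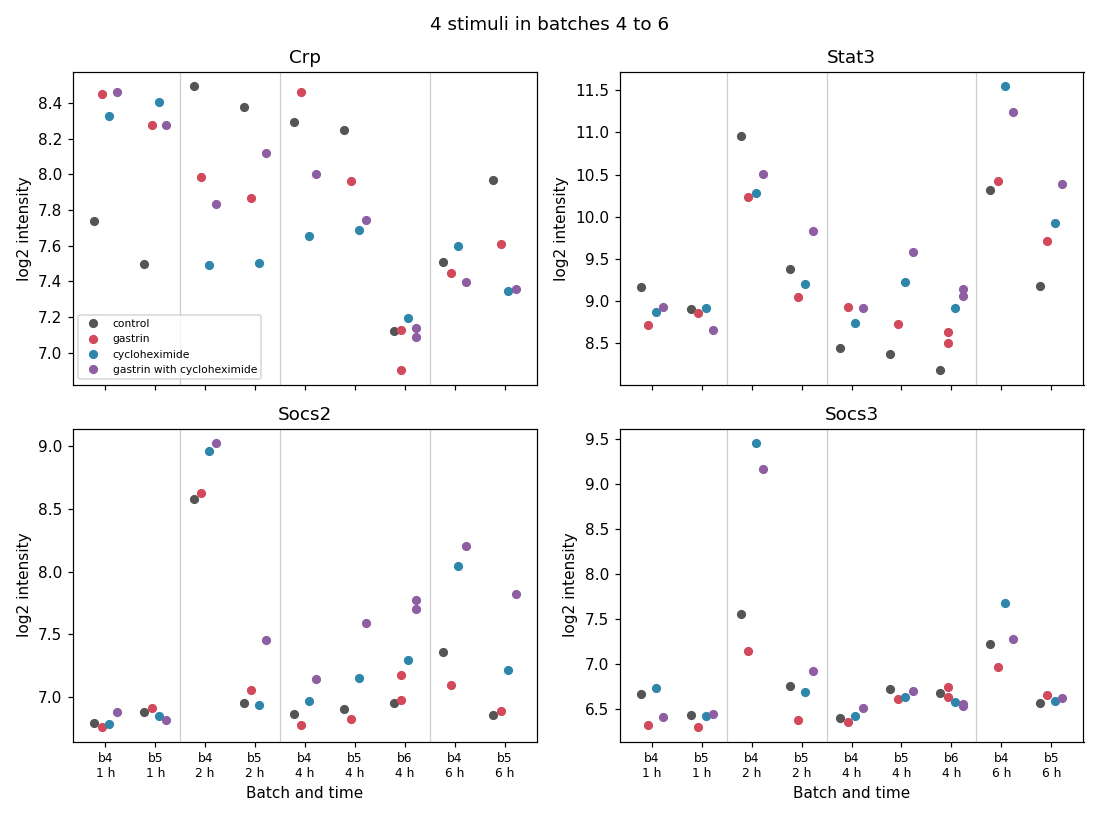
Levels of Crp, Stat3, Socs2 and Socs3 (log2 intensity, vertical axes, each with its own range) in batches 4 to 6 by batch (b4, b5, b6) and time; 1 point is 1 array, coloured by treatment, and at 1 h only the numbered title series is drawn. At 2 h all 4 points of batch 4 lie above those of batch 5 for Stat3, Socs2 and Socs3, with Socs3 reaching 9.45, and at 1 h the Crp control (grey) lies below the other 3 colours in both batches.

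With cycloheximide alone Stat3 was higher at 4 and 6 h. Stat3 read 8.44, 8.37 and 8.18 in the 4 h controls of batches 4, 5 and 6 and 8.74, 9.23 and 8.92 with cycloheximide, and at 6 h 10.31 and 9.18 in the controls of batches 4 and 5 and 11.55 and 9.93 with cycloheximide. All 5 pairs were higher, and Stat3 rose by 0.81 ± 0.13, 1.76-fold (limma adjusted p = 3.71e-05). Socs2 was higher in 5 of 5 pairs too and rose by 0.37 ± 0.08 (adjusted p = 0.00109), and Crp fell by 0.32 ± 0.11 (adjusted p = 0.0312), lower in 3 of 5 pairs. Those 3 of 8 members compare with 25.5% of all probes. The call for Crp was lost without batch 5 (-0.10), that for Socs2 with batch as an additive term (adjusted p = 0.437) and with the array score (adjusted p = 0.0513), and all 3 with no batch term. Socs3 (0.09 ± 0.19) did not pass.

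At 1 and 2 h cycloheximide gave 0 of 8 calls among the members (1 at an unadjusted limma p under 0.05), against 13.4% of all probes. Socs3, a gene known to respond early, differed by 0.47 ± 0.21 (adjusted p = 0.144). That value rested on batch 4 at 2 h, where the pair differed by 1.89, and without batch 4 at 2 and 6 h it was -0.02. The Crp pairs had opposite signs by time. At 1 h cycloheximide samples read 8.33 and 8.40 against controls of 7.74 and 7.50, and at 2 h they read 7.49 and 7.50 against 8.49 and 8.38, and the mean was -0.09 ± 0.12. Without the 2 h arrays the Crp difference at 1 h was 0.75 ± 0.17 (limma adjusted p = 0.014). It is not particular to cycloheximide. In the same 1 h series gastrin with cycloheximide read 8.46 and 8.27, differing from gastrin alone by 0.01 and -0.003. Every treatment thus stood above these controls, and the unnumbered 1 h series held no cycloheximide arrays.

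In cells given cycloheximide, Socs2 rose with gastrin at 4 and 6 h. At 4 h gastrin with cycloheximide read 7.15 and 7.59 in batches 4 and 5 against 6.97 and 7.15 with cycloheximide alone, in batch 6 the arrays read 7.70 and 7.78 against 7.30, and at 6 h 8.20 and 7.82 stood against 8.05 and 7.21. The difference at 4 and 6 h was 0.37 ± 0.08 (limma adjusted p = 0.00945), higher in 5 of 5 pairs, and 1 of 8 members passed, where 3.48% of all probes did. It was 0.23 and did not pass without batch 5, and the call was also lost with batch as an additive term (adjusted p = 0.707) or no batch term (adjusted p = 0.964). In the same batches and times the Socs2 pairs without cycloheximide differed by -0.27 to 0.12. The test of that contrast, the gastrin effect with minus without cycloheximide, gave 0.43 ± 0.11 for Socs2 and did not pass (adjusted p = 0.113), and 0 of 8 members passed (1 at an unadjusted limma p under 0.05), against 0.369% of all probes. At 1 and 2 h gastrin over cycloheximide gave 0 of 8 calls (0 at an unadjusted p under 0.05), against 0.0799% of all probes, with Crp at 0.24 ± 0.12 (adjusted p = 0.691). The effect with minus without cycloheximide at 1 and 2 h also gave 0 of 8 (1 at an unadjusted limma p under 0.05), against 0.302%, with Stat3 at 0.55 ± 0.20 (adjusted p = 0.243).

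**Figure D4:**
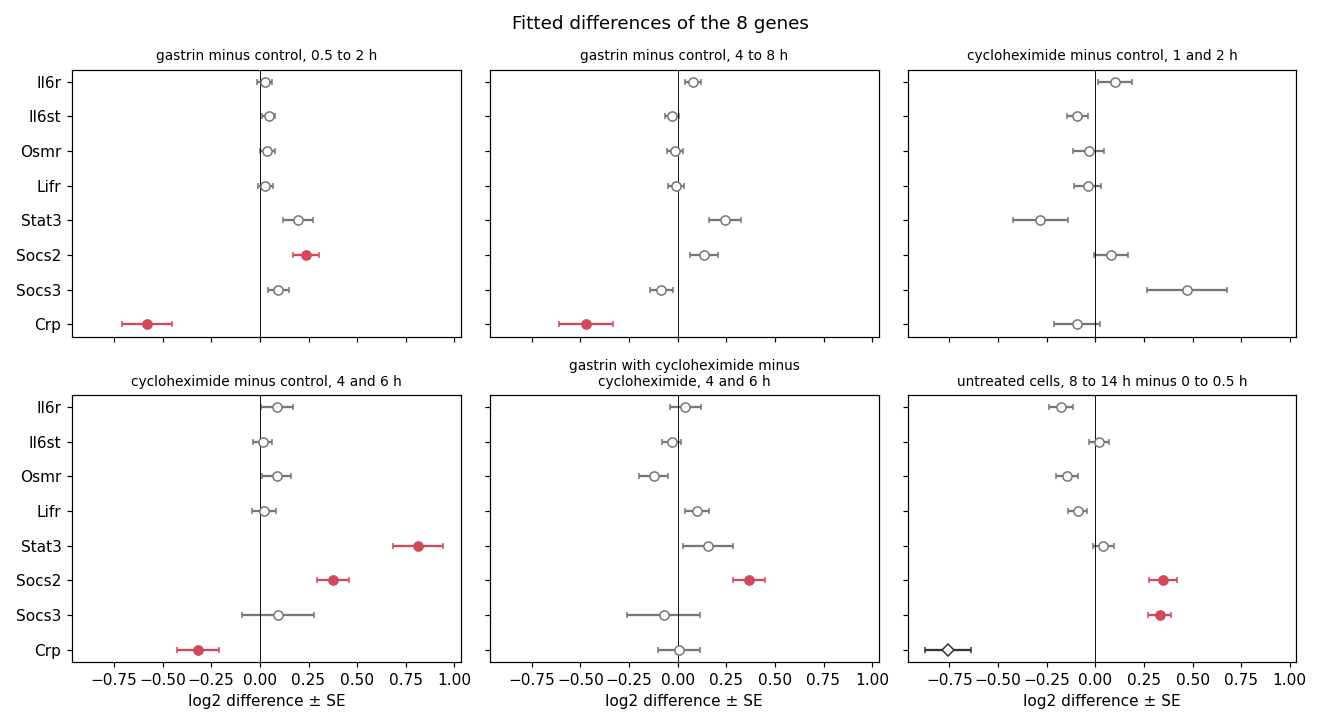
Fitted log2 difference ± SE (horizontal axis) of the 8 genes in 6 comparisons; filled red points passed limma's test over all probes at an adjusted p of 0.05 and open grey points did not. The receptors Il6r, Il6st, Osmr and Lifr sit near 0 in every panel, and the filled points are Crp and Socs2 at 0.5 to 2 h, Crp at 4 to 8 h, Stat3, Socs2 and Crp with cycloheximide at 4 and 6 h, Socs2 for gastrin over cycloheximide, and Socs2 and Socs3 in untreated cells, where the open diamond is Crp, not tested there.

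Members also drifted in culture without any treatment. In the controls of batch 2 Crp lay between 9.56 and 10.33 at 0 to 0.5 h and between 8.93 and 9.49 at 8, 10 and 14 h, and in batch 3 between 9.37 and 9.94 and then between 8.85 and 9.02. At these times early and late did not overlap in either batch, while the 12 h control of batch 2, which was not part of the test, read 9.60. The fitted difference of Crp was -0.76 ± 0.12, 1.69-fold lower, given as a description with no test because its 10 and 14 h controls also stand in the contrast that picked Crp. Socs3 rose by 0.33 ± 0.06 (adjusted p = 0.00113), from 6.55 to 6.76 and up to 7.06 to 7.26 in batch 2, and Socs2 by 0.35 ± 0.07 (adjusted p = 0.00354), from 6.65 to 6.82 and up to 7.03 to 7.44 in batch 3, while in batch 2 its ranges of 6.57 to 6.68 and 6.66 to 6.94 overlapped. Socs3 in batch 3 went from 6.90 to 6.99 and up to 7.08 to 7.21. Stat3 differed by 0.04 ± 0.05. So 2 of the 7 members other than Crp passed, where 10.2% of all probes did. With batch 2 left out neither passed, and with batch 3 left out only Socs3 did. Over all probes 250 and 2209 passed in these fits. Arrays at several times of one batch count as separate here, so the p-values do not measure spread between the batches.

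The rest of the pathway was followed through lists chosen with earlier results of these data known. Of 15 measured STAT3 target genes 8 rose with gastrin at 0.5 to 2 h and 0 fell, with a list median of 0.34 against -0.01 for all named genes, 12% of which passed. Fos (2.09 ± 0.17) and Junb (1.64 ± 0.14), immediate early transcription factors, and Cebpb (0.99 ± 0.17), a C/EBP factor of the acute phase, rose most, the weakest limma adjusted p of these being 0.000221. In batches 4 to 6 the gastrin effect on 8 of these 15 was lower than in batches 2 and 3 at 1 and 2 h and on 1 higher (list median -0.41), where 24.8% of named genes passed. Of the arrays with a high score, 6 were gastrin arrays of batches 2 and 3 at 1, 1.5 and 2 h, and the part of the score in the list's values was not tested. At 4 to 8 h 3 of 15 rose, with Cebpb at 1.62 ± 0.18, where 13.6% of named genes passed. Other inhibitors of the pathway went the same way early, with 5 of 14 higher and 0 lower, among them the phosphatase genes Ptpn2 (0.35 ± 0.06) and Ptpn1 (0.23 ± 0.05) and Socs1 (0.21 ± 0.05), whose limma adjusted p were 0.00322 or lower. Of 14 other receptors 0 rose and 3 fell, including Ifngr2 (-0.24 ± 0.05), a chain of the interferon gamma receptor, and of 6 ligands of the family 1 fell, Cntf (-0.28 ± 0.06), by limma's test. Of 8 Janus kinase and STAT genes 0 passed at 0.5 to 2 h. At 4 to 8 h 2 of these 8 rose, Jak3 (0.32 ± 0.08) and Stat2 (0.21 ± 0.05), and 1 fell, Jak2 (-0.19 ± 0.04). In that window 13.6% of named genes passed.

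Acute phase genes other than Crp were mostly flat with gastrin when fitted over all batches. Of 19 measured, 0 rose and 3 fell with gastrin at 0.5 to 2 h: Tf (transferrin, -0.27 ± 0.05), Agt (angiotensinogen, -0.27 ± 0.08) and Serpina1 (alpha-1-antitrypsin, -0.19 ± 0.05), whose limma adjusted p were 0.0301 or lower, and the list median was -0.05. That share was near the 12% of all named genes called. Serpina1 alone of these 19 passed at 10 and 14 h, at -0.32 ± 0.08 (limma adjusted p = 0.01). At 1 and 2 h the gastrin effect on 6 of the 19 was higher in batches 4 to 6, and on 1 lower. That contrast with batches 2 and 3 called 24.8% of named genes. Agt (0.72 ± 0.10), Tf (0.45 ± 0.09) and Serpina1 (0.44 ± 0.09) differed most in it. Among 8 genes of factors that act on Crp, Foxa3 (0.56 ± 0.10) and Foxa2 (0.37 ± 0.07) rose with gastrin at 0.5 to 2 h by limma's test and 0 fell, beside the same 12%. The pancreatic acute phase genes Clu (clusterin, 1.68 ± 0.12), Reg3a (0.55 ± 0.10) and Reg1a (0.27 ± 0.08) rose at 4 to 8 h, 3 of 6 measured, where 13.6% of named genes passed. At 10 and 14 h, where 9.53% did, Clu rose by 2.01 ± 0.16 (limma adjusted p = 1.7e-09) and Reg3b fell by 0.72 ± 0.19 (adjusted p = 0.0193).

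The patterns most like those of 3 members were sought over 64 control and gastrin samples, each batch centred on its own mean, as a description in which points share batch and time. Crp ran with Tprkb (Pearson r = 0.870), Tmed6 (0.867) and Akr1c14 (0.855). Over the 44 samples of batches 2 and 3 the values were 0.920, 0.917 and 0.948. Socs2 ran with Arid5a (0.886), Maff (0.872) and Tnfrsf12a (0.826), and Socs3 with Reg1a (0.717), Reg3b (0.703) and Fhl3 (0.698). Leaving out batch 4 at 2 and 6 h lowered the first value of Socs2 to 0.785 and that of Socs3 to 0.671. Among the members Stat3 and Socs2 had r = 0.706, and Crp and Socs2 -0.233 over all and -0.510 in batches 2 and 3.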

How the data were processed

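Expression of AR42J cells was measured on 90 Illumina bead arrays. The authors deposited log2 values, which the submitters' processing notes tie to lumi 2.4.0. The sources used here do not say whether that scale is a plain logarithm or variance-stabilised. The deposited log2 values were used with no further scaling. Of 22523 probes, 13793 had 1 gene symbol and 8730 had none, and 13752 of the named probes matched the RefSeq gene table. Levels of 2 arrays with contradictory labels were kept out of all tests.

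Groups came from the labels. Each comparison was fitted over all probes with limma 3.58.1 (lmFit and eBayes, R 4.3.3), blocking on each batch at each time, and p-values were adjusted by Benjamini-Hochberg over all probes, threshold 0.05. These model-based p-values are from limma throughout. The labels name the batch, and deviations of control and gastrin arrays of one batch and time correlated at 0.199 to 0.923. The fits were tested on simulated data. Arrays of one batch, treatment and time were averaged first (repeat arrays of batch 6, both series at 1 h in batches 4 and 5), except that comparisons with cycloheximide used the numbered 1 h series alone. The untreated comparison was blocked on batch.

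Members and lists were chosen with earlier results of these data known. The genes named are the 8 members, up to 3 genes with the largest change among those past the threshold per pathway list and comparison, and the 3 genes most correlated with Crp, Socs2 and Socs3. Alternatives covered the block, array weights, eBayes options, a filter on dim probes, scaling, an array score, batch subsets and each batch left out. The number of arrays limits the precision.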

Additional observations from a re-analysis of the deposited data

Results flagged for a closer look

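Among 64 groups of 4 or more samples, 2 held a sample far from the others by Dixon's criterion, and chance alone gives such a sample in about 5% of groups. Socs3 in the 2 h control of batch 4 was the highest of 4, at 7.56. Socs3 in the 6 h gastrin sample of batch 5 was the lowest of 4, at 6.65. The gastrin effect differed between the inhibitor batches and the long course for 4 members by limma's test of the difference. That test counts the times of one batch as separate. At 1 and 2 h the differences were 1.04 for Crp, -0.65 for Stat3, -0.41 for Socs2 and -0.46 for Socs3, and at 4 and 6 h they were 0.79 for Crp and -0.53 for Socs2.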

How the results depend on the processing

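Counts are of members that passed limma's test. Calls over all 22523 probes changed with the fit too. For gastrin at 0.5 to 2 h they went from 2075 to 5981 in batches 2 and 3 alone. They went to 1235 with the array score as covariate and to 95 without high-score blocks. At 4 to 8 h they went from 2323 to 3715, 2797 and 3093 in the same 3 fits. Of the values recomputed for counts, 159 stayed within 1.5 times the reported count and 49 did not, and of those for single genes 414 kept their direction and side of the threshold, 35 passed only under the alternative, 46 no longer passed, 15 turned in sign and 1 moved. The cause of these changes was not tested.

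The pairing of samples within a batch mattered most. With no replicate block 0 members passed in place of 2 (gastrin, 0.5 to 2 h), 1 (gastrin, 4 to 8 h), 3 (cycloheximide, 4 and 6 h), 1 (gastrin over cycloheximide, 4 and 6 h), and 4 and 2 (batch sets, 1 and 2 h and 4 and 6 h). With batch as an additive block the counts were 1 (gastrin, 0.5 to 2 h), 0 (gastrin over cycloheximide, 4 and 6 h), and 1 and 0 (batch sets). Calls over all probes fell as well. For gastrin at 0.5 to 2 h and 4 to 8 h they went to 136 and 214 with no block, and to 881 and 1239 with the additive block.

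For gastrin at 4 to 8 h, 2 members passed with array weights, with probes above the median level, with the array score as covariate, without blocks of a high score, without batch 4 at 2 and 6 h and without 2 h of batches 4 and 5, 3 in batches 2 and 3 alone, and 0 with trend and robust options or with 1 h taken from the series of 4 stimuli. At 0.5 to 2 h the count was 1 with the score, 0 without high-score blocks and 4 in batches 2 and 3 alone, and at 10 and 14 h, 1 with the score and 1 in batches 2 and 3 alone. For 4 to 8 h minus 0.5 to 2 h it was 1 without high-score blocks and 1 in batches 2 and 3 alone. For 10 and 14 h minus 0.5 to 2 h it was 1 with array weights, 3 with the score, 3 in batches 2 and 3 alone, 1 without batch 4 at 2 and 6 h and 3 without 2 h of batches 4 and 5. It was 1 for cycloheximide at 1 and 2 h without high-score blocks and 1 without 2 h of batches 4 and 5, 1 for the gastrin effect with minus without cycloheximide at 1 and 2 h without high-score blocks, 1 for the same at 4 and 6 h with the score, 0 with the score and 2 without 2 h of batches 4 and 5 for the batch sets at 1 and 2 h, and 4 for untreated cells with array weights in place of 2.

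Leaving out each batch in turn gave 0 to 3 (gastrin, 0.5 to 2 h), 0 to 2 (4 to 8 h), 0 to 2 (10 and 14 h minus 0.5 to 2 h), 0 to 1 (cycloheximide, 1 and 2 h), 0 to 1 (gastrin over cycloheximide, 4 and 6 h) and 0 to 1 (untreated cells). Over all probes the calls with gastrin at 0.5 to 2 h ran from 214 without batch 3 to 3095 without batch 5. At 4 to 8 h they ran from 757 without batch 3 to 2527 without batch 4.

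Signs turned for Stat3 at 4 to 8 h minus 0.5 to 2 h (-0.012 with array weights, -0.14 in batches 2 and 3 alone, -0.083 without 2 h of batches 4 and 5, and with each batch left out from -0.021 without batch 4 to 0.14 without batch 2) and at 0.5 to 2 h (-0.038 without high-score blocks). For Crp the gastrin effect with minus without cycloheximide at 1 and 2 h became -0.000706 with the score and -0.74 without high-score blocks or without 2 h of batches 4 and 5, and cycloheximide at 1 and 2 h became 0.75 under both of the latter and ran from -0.21 without batch 5 to 0.017 without batch 4. Socs2 between batch sets at 1 and 2 h became 0.20 with the score. Socs3 with cycloheximide at 1 and 2 h became -0.016 without batch 4 at 2 and 6 h and ran from -0.038 without batch 4 to 0.98 without batch 5.

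No other probe of a member exists to be tried, the batch sets at 1 and 2 h could not be formed without high-score blocks, and the additive block equals the reported design for untreated cells. Leaving out batch 4 at 2 and 6 h, or 2 h of batches 4 and 5, was chosen after seeing the data.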

Other observations

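Other genes than Stat3, Socs2 and Socs3 also stood higher in batch 4 than in batch 5 at 2 h with every treatment. Those named here were chosen after their values were seen, rest on 1 array per treatment and have no test. Reg3b, a lectin made by the inflamed pancreas, had the highest smallest difference of batch 4 over batch 5 at 2 h among the named genes, at 3.52 in controls, 4.17 with gastrin, 5.72 with cycloheximide and 6.07 with both. In batch 4 the Reg3b control read 6.88 at 1 h, 10.44 at 2 h and 10.57 at 6 h, and in batch 5 it read 6.67, 6.92 and 6.88. With cycloheximide Reg3b read 7.24, 13.21 and 13.66 in batch 4 and 7.01, 7.49 and 7.36 in batch 5. By the same measure Junb, Zfp36, Nppc, Reg3a and Arid5a came next, and Socs2 stood at place 15, Socs3 at 47 and Stat3 at 59. Nppc, Trh and Cyp11a1, at places 4, 8 and 12, were already among the highest at 1 h, at places 4, 2 and 1, while Reg3b was at place 2343 there.

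The 2 arrays of batch 3 at 12 h with contradictory labels read 9.28 and 9.34 for Crp, 10.29 and 10.64 for Stat3, 7.33 and 7.03 for Socs2, and 6.98 and 6.77 for Socs3.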
